A study of Homo sapiens with 36 samples.

Results

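The comparison described here set HK-2 cells that had received the high dose of Kbr for 24 h against HK-2 cells that had received its vehicle for the same time. HK-2 is an established human kidney cell line that was immortalized from proximal tubule epithelium, the nephron segment that takes back most of what the glomerulus filters. The 6 arrays, 3 of each group, were chosen by their sample descriptions and are 6 of the 36 arrays of a series that measured gene expression under 3 compounds its labels name CdCl, Di and Kbr. The compounds' names are not spelled out in the labels, doses are given only as low or high, and the series set out to find expression signatures of toxicity. Each group held 3 biological replicates per the labels, numbered 1 to 3, and the same numbers recur in every group of the Kbr set. The high-dose group was Kbr at the high dose for 24 h, and its reference was vehicle for 24 h, which also served the low dose. Further groups used below were Kbr at the low dose for 24 h (3 arrays), and Kbr at the high dose for 48 h with its own 48 h vehicle (3 arrays each). All groups shared the cell line and a medium with EGF, hydrocortisone, insulin, transferrin and selenite, and were treated when nearly confluent. One cell line in culture is the whole of the model, so the values speak of HK-2 cells and not of a kidney.

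The values were log2 signals per probe set after background correction and normalization by the authors, and a difference of 1 on that scale is a 2-fold change. A gene was counted as measured if its probe set exceeded a log2 signal of 4 on at least 3 of the 36 arrays, which left 11092 genes. Arrays within the 2 groups correlated at r = 0.987 to 0.992 over the kept probe sets, and arrays of the high dose and vehicle at 0.963 to 0.979. As a gauge of RNA length, the log2 signal at the 3′ end of actin mRNA exceeded that at its 5′ end by 0.92, 1.13 and 0.71 with the high dose and 0.75, 1.12 and 0.73 with vehicle, so the groups overlapped. The labelled cell type was only partly borne out by its markers. PAX8, a renal epithelial transcription factor, was measured on all 6 arrays, whereas the apical receptors LRP2 and CUBN and the water channel AQP1 stayed at or under 2.65 on every one of these arrays. Of 30 proximal tubule genes listed, 9 were measured.

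Cells that meet electrophilic or oxidizing agents, or proteins that fail to fold, answer with well studied transcription programmes. NRF2, held down by KEAP1, drives the genes of glutathione and thioredoxin supply through antioxidant response elements, while heat shock factors drive chaperone genes through heat shock elements. Proximal tubule cells carry many transporters and are a frequent site of injury by metals and oxidants, and they lose transporters and adhesion proteins when stressed.

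With the high dose of Kbr, 4517 of 11092 genes (40.7%) passed the test after 24 h (limma, Benjamini-Hochberg adjusted p under 0.05). Of all genes tested, 15.4% were higher and 25.3% lower than with vehicle, which is 1711 and 2806 genes. At least 2-fold changes that also passed the test numbered 850 (7.66%), with 145 genes higher and 705 lower. The median difference over all genes was -0.06. The split between higher and lower depended on scaling, since 37.9% of the calls were higher as deposited and 51.0% after each array was centred on its median (2293 higher and 2207 lower). The high-dose and vehicle arrays did not overlap in 4146 of the 4517 called genes, a separation that the call itself favours. In all, 5334 genes had an unadjusted p under 0.05. With the Kbr arrays paired by replicate number in the fit, 5472 genes passed the test. Because these are bulk cultures, fewer cells of one kind and less RNA per cell cannot be told apart.

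**Figure D1:**
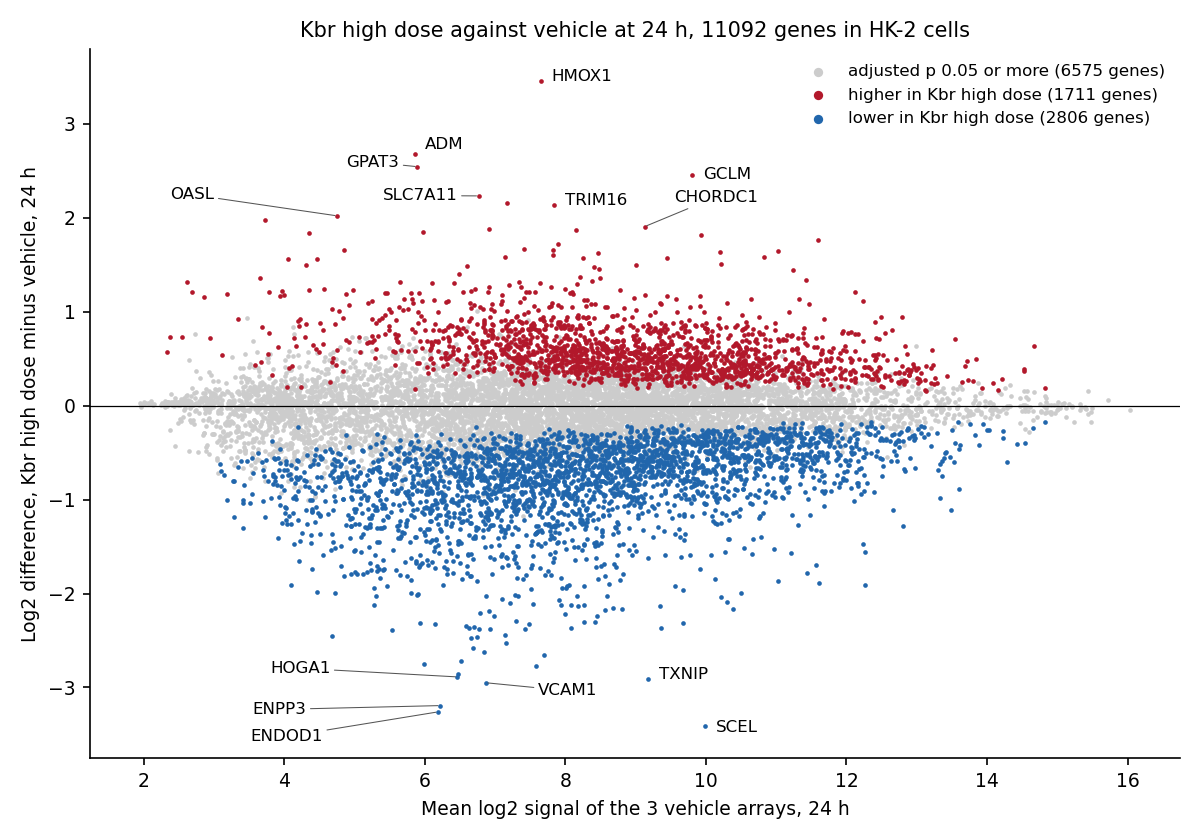
Each point is 1 of the 11092 genes, with its mean log2 signal on the 3 vehicle arrays on the x axis and the log2 difference, Kbr high dose minus vehicle at 24 h, on the y axis. The 1711 red genes were higher and the 2806 blue genes lower with the high dose, and the 6575 grey genes did not pass the test. HMOX1 stands highest at 3.45, and SCEL lowest at -3.41.

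The largest rise of all genes belonged to HMOX1, haem oxygenase, which breaks haem down to iron, biliverdin and carbon monoxide. HMOX1 read 11.4, 11.0 and 11.0 on the 3 high-dose arrays and 7.71, 7.29 and 7.98 on the vehicle arrays. Every high-dose array of HMOX1 lay above the vehicle array of its own number by at least 3 log2 units and the groups did not overlap, with a difference of 3.45 ± 0.19 (SE; adjusted p = 6.25e-13) or 10.9-fold. Of the 15 measured genes of haem breakdown and iron handling, 4 were higher and 6 lower (2 lower after median centring), with a median of 0.14. The iron exporter ferroportin, SLC40A1, fell, reading 4.81, 4.96 and 4.11 with the high dose and 7.66, 7.19 and 6.62 with vehicle. The highest high-dose value of SLC40A1 was below its lowest vehicle value, and the difference was -2.53 ± 0.29 (adjusted p = 1.14e-07). Ferritin light chain FTL, an iron store, was higher by 0.37 ± 0.06, and the transferrin receptor TFRC, which brings iron in, by 0.95 ± 0.18 (adjusted p = 1.69e-05 and 0.000126), although the 4 probe sets of TFRC ranged from -0.05 to 1.48. PIR, an iron-binding nuclear protein, was higher by 0.83 ± 0.13. BLVRA, the reductase that turns biliverdin into bilirubin, differed by -0.37 ± 0.10 (adjusted p = 0.0031).

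Genes for cystine uptake and the first step of glutathione synthesis rose. Of 17 measured genes of glutathione synthesis and cystine uptake, 6 were higher and 5 lower, with a median of -0.24. The higher ones included both subunits of the cystine carrier and both subunits of glutamate-cysteine ligase, the enzyme that sets the rate of glutathione synthesis. GCLM, its modifier subunit, read 12.5, 12.1 and 12.2 with the high dose and 9.73, 9.46 and 10.2 with vehicle, a difference of 2.46 ± 0.15 (adjusted p = 2.94e-12), and its catalytic partner GCLC differed by 1.36 ± 0.24 (adjusted p = 5.71e-05). SLC7A11, the cystine carrier's transport subunit, read 9.19, 9.25 and 8.56 with the high dose against 6.68, 6.80 and 6.82 with vehicle (2.23 ± 0.43, adjusted p = 0.000142). Its anchoring subunit SLC3A2 read 10.3, 9.83 and 9.96 with the high dose against 8.10, 7.90 and 8.44 with vehicle (1.87 ± 0.32, adjusted p = 4.15e-05). In all 3 of these genes the lowest high-dose array exceeded the highest vehicle array. Glutathione reductase GSR, which regenerates glutathione, was higher by 1.02 ± 0.15. Other members of the list were lower. CBS, which starts the route from homocysteine to cysteine, read 6.32, 5.52 and 6.06 with the high dose and 8.57, 7.94 and 8.30 with vehicle (-2.30 ± 0.24, adjusted p = 2.88e-08). Glutathione synthetase GSS, which adds glycine in the last step of synthesis, differed by -0.82 ± 0.12, glutaredoxin GLRX by -0.78 ± 0.09 and the lipid peroxidase GPX4 by -0.24 ± 0.08 (adjusted p = 7.66e-06, 1.85e-07 and 0.011).

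In the thioredoxin branch the reductase rose and an inhibitor fell. TXNRD1, thioredoxin reductase, read 13.4, 13.5 and 13.2 with the high dose and 11.6, 11.7 and 11.5 with vehicle, which is 3.39-fold (1.76 ± 0.11, adjusted p = 1.72e-12). Sulfiredoxin SRXN1, which repairs overoxidized peroxiredoxins, was higher by 1.60 ± 0.16, and thioredoxin TXN by 0.42 ± 0.07. TXNIP, an inhibitor that binds thioredoxin, went the other way and read 5.39, 6.28 and 7.15 with the high dose and 9.11, 9.64 and 8.80 with vehicle. The high-dose arrays of TXNIP were spread over almost 2 log2 units but all lay below the vehicle arrays (-2.91 ± 0.43, adjusted p = 5.37e-06). PRDX1, a peroxiredoxin, differed by 0.24 with an adjusted p of 0.0973, and 0.0063 in a fit that paired arrays by replicate number. Of the list's 17 measured genes, 5 were higher and 4 lower, with a median of -0.17.

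Enzymes that reduce quinones and carbonyls and enzymes that supply NADPH changed in both directions. Among 22 measured phase 2 genes, 8 were higher and 5 lower, with a median of 0.20, and among 12 NADPH genes, 5 were higher and 4 lower, with a median of 0.21. NQO1, the quinone reductase, read 12.7, 12.9 and 12.4 with the high dose and 11.0, 11.2 and 10.9 with vehicle (1.64 ± 0.13, adjusted p = 1.42e-10). UGDH, which makes the sugar used in glucuronidation, differed by 1.14 ± 0.17 and AKR1C1, an aldo-keto reductase whose probe sets may also bind its close relatives, by 1.03 ± 0.27. Glutathione transferase GSTK1 was lower, reading 9.17, 9.13 and 9.58 with the high dose and 10.5, 10.3 and 10.4 with vehicle (-1.13 ± 0.11, adjusted p = 1.67e-08). The conjugate exporter ABCC3 differed by -1.40 ± 0.18 in the probe set used, but its 5 probe sets ranged from -1.40 to 0.09. For NADPH, malic enzyme ME1 was higher by 0.97 ± 0.09 and mitochondrial IDH2 lower, at -1.02 ± 0.15 (adjusted p = 3.42e-09 and 3.57e-06). PGD of the pentose phosphate pathway differed by -0.04 (adjusted p = 0.833).

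Several regulators of NRF2 rose, while the call for NRF2's own transcript depended on the fit. Of 15 measured NRF2 regulators and partners, 7 were higher and 3 lower, with a median of 0.40, and leaving out any 1 array left 0 or 1 of the lower calls. TRIM16, a ubiquitin ligase, read 9.98, 10.0 and 9.97 with the high dose and 7.71, 7.70 and 8.12 with vehicle (2.14 ± 0.14, adjusted p = 5.19e-12). SQSTM1, the p62 adaptor that binds KEAP1, was higher by 1.44 ± 0.16, the small partner MAFG by 1.07 ± 0.22 and KEAP1 itself by 0.59 ± 0.16. The KEAP1 call was lost in a fit on the 6 arrays alone. OSGIN1, an oxidative stress growth inhibitor, was at least 3.26-fold higher, with 6.39, 4.81 and 5.92 in high-dose cells and 3.74, 3.75 and 3.69, all under the floor of 4, in vehicle cells. NFE2L2, which encodes NRF2, differed by 0.35 (adjusted p = 0.134) and passed in the fit paired by replicate number (adjusted p = 0.023), after median centring (0.0222), with the mean of its probe sets (0.01), or without vehicle replicate 1 (0.0465). The 1 gene of the superoxide list past the test was SOD1, a superoxide dismutase, at 0.43 ± 0.10, among 4 measured, while catalase CAT differed by -0.19 (adjusted p = 0.247), and the paired fit called 1 gene of this list lower.

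The promoters of the higher antioxidant genes were read for the core of the antioxidant response element, TGACNNNGC on either strand, in 300 bases around each start site in RefSeq on GRCh38.p14. The window held it in 8 of 29 higher members of the 6 antioxidant and iron lists with a promoter in the table (27.6%). It held it in 11 of their 53 other measured members (20.8%), in 15.4% of the 9184 promoters of genes tested and in 13.6% of all 27305 promoters. HMOX1, SLC7A11, TRIM16 and NQO1 were not among the 8 with a match. The 3 promoters below were chosen from the members with a match and belong to genes among the largest rises of these lists. They run 5′ to 3′ along the gene and carry each match in capitals. GCLM, chr1:93909381-93909680 on the minus strand, holds 1 match at positions -34 to -26 from the start site, TXNRD1, chr12:104215529-104215828 on the plus strand, holds 2, beginning at -99 and -8, and SLC3A2, chr11:62881449-62881748 on the plus strand, holds 1 at -37 to -29. A match is a run of letters and not a shown binding site.
GCLM: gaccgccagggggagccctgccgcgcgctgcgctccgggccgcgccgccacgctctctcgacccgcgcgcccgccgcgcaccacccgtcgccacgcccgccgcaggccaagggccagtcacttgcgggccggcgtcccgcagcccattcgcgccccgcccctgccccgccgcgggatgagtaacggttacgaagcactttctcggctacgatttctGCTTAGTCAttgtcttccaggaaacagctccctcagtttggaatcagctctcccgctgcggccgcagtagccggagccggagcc
TXNRD1: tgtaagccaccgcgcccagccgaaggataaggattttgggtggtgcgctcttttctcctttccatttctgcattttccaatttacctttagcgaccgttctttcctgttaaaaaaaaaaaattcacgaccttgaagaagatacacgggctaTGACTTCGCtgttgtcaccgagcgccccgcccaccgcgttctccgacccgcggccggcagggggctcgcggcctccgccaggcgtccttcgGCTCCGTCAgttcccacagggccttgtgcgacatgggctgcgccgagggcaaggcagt
SLC3A2: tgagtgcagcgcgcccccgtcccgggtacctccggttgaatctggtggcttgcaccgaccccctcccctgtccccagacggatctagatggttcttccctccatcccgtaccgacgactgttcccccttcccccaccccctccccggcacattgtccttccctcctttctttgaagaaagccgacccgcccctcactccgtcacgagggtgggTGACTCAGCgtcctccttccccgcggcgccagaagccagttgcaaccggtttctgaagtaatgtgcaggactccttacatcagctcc

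**Figure D2:**
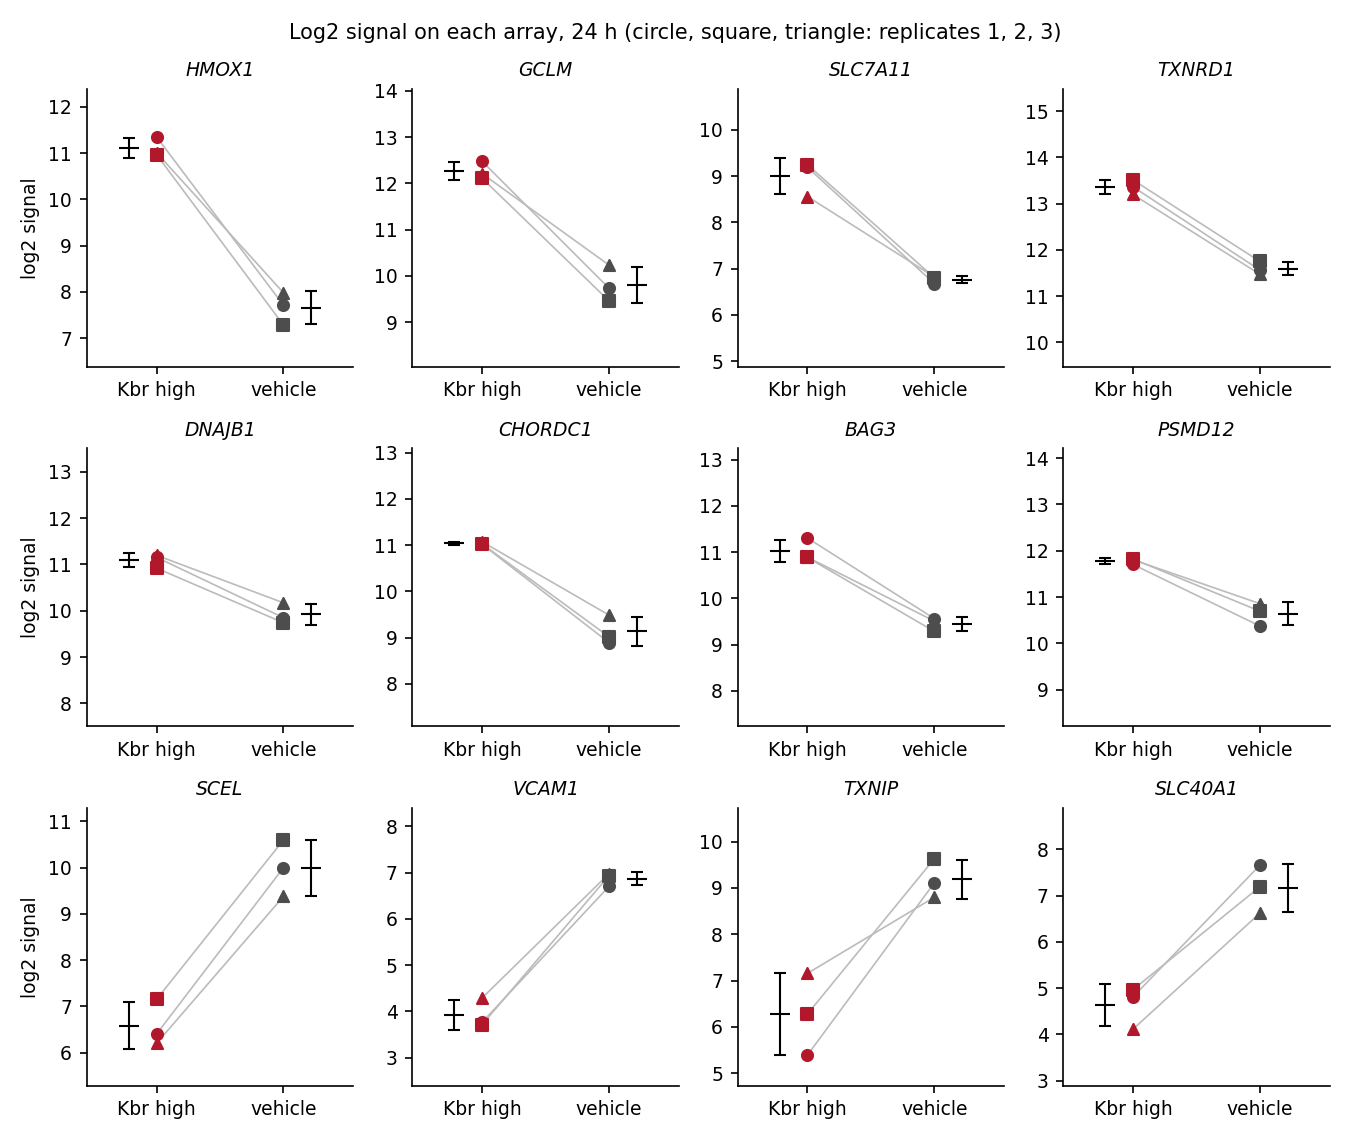
Log2 signal of 12 genes on each array at 24 h, with Kbr high dose on the left and vehicle on the right of each panel, lines joining arrays of the same replicate number, and bars giving the mean ± SD of 3 arrays. In HMOX1, GCLM, SLC7A11, TXNRD1, DNAJB1, CHORDC1, BAG3 and PSMD12 all high-dose points lie above all vehicle points, and in SCEL, VCAM1, TXNIP and SLC40A1 all lie below.

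Metallothioneins, small cysteine-rich proteins that bind zinc and cadmium and are classic targets of metal exposure, were in several cases lower with the high dose. Of 11 measured genes of the metallothionein and zinc list, 6 were lower and 0 higher, with a median of -0.45 (1 higher without vehicle replicate 3, and 4 lower and 1 higher after median centring). MT1E read 12.8, 12.7 and 12.9 with the high dose and 13.4, 13.3 and 13.4 with vehicle, so every high-dose array lay below every vehicle array (-0.59 ± 0.11, adjusted p = 9.13e-05). MT1F differed by -0.66 ± 0.14, MT1X by -0.60 ± 0.14 and MT2A by -0.41 ± 0.12 (adjusted p = 0.000346, 0.00137 and 0.00752), and the call for MT2A was lost after median centring (0.0595). The probe sets of these near-identical genes may bind each other's transcripts, so the member that changed is uncertain.

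Most measured chaperone transcripts of the cytosol rose. Of 14 measured HSP70, HSP90 and small heat shock genes, 10 were higher and 0 lower, with a median of 0.60. Among 28 co-chaperones and chaperonin subunits, 21 were higher and 1 lower, with a median of 0.49, beside -0.06 for all genes. CHORDC1, an HSP90 co-chaperone, read 11.0, 11.0 and 11.1 with the high dose and 8.89, 9.02 and 9.49 with vehicle (1.91 ± 0.15, adjusted p = 1.89e-10). The HSP70 co-chaperone BAG3 read 11.3, 10.9 and 10.9 with the high dose and 9.56, 9.29 and 9.51 with vehicle (1.57 ± 0.15, adjusted p = 1.22e-08). HSPH1, an HSP110 nucleotide exchange factor, read 12.4, 12.5 and 12.3 with the high dose and 10.7, 10.9 and 11.0 with vehicle (1.58 ± 0.10, adjusted p = 2.94e-12). In these 3 genes the gap between groups was wider than the range within either group.

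Further down the same lists, the J-domain proteins DNAJC2 and DNAJB1 were higher by 1.51 ± 0.09 and 1.17 ± 0.22, and the small heat shock protein HSPB8 by 1.06 ± 0.14. HSP90AA1, the stress-inducible HSP90, was higher by 0.64 ± 0.08, and HSPA4, an HSP70 relative, by 0.78 ± 0.08. The 1 lower gene was BAG5, at -0.31, a call absent without high-dose replicate 1 or 2 or vehicle replicate 2 (adjusted p = 0.14, 0.0674 and 0.23) and in the fit paired by replicate number (0.075). HSPA6, the strictly inducible HSP70, lay under the floor of 4 on all 6 arrays. HSPA1A, HSPA1B and HSPA8 were not analysed here because their probe sets name several genes.

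The heat shock element, written as GAA, any 2 letters, TTC, any 2 letters and GAA, was read on both strands. It stood in the 300-base window of 3 of 28 higher chaperone genes and of 1 of their 5 other measured members. It stood in 0.487% of all 27305 promoters and in 0.316% of the 9184 promoters of genes tested. CHORDC1, chr11:90223000-90223299 on the minus strand, holds 3 overlapping matches that begin at positions -60, -55 and -50. DNAJA1, chr9:33025023-33025322 on the plus strand, holds 1 match at 4 to 16 bases after the start site, and was higher by 1.12 ± 0.10. Both are shown with the matches in capitals, because they belong to chaperone genes that rose. The third gene with a match was DNAJB6, which differed by 0.68.
CHORDC1: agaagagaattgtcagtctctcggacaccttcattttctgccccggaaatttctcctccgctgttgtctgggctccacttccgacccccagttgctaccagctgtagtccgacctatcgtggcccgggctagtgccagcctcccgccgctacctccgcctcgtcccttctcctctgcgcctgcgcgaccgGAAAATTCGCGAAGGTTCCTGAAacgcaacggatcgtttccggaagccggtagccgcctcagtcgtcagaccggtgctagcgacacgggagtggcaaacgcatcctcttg
DNAJA1: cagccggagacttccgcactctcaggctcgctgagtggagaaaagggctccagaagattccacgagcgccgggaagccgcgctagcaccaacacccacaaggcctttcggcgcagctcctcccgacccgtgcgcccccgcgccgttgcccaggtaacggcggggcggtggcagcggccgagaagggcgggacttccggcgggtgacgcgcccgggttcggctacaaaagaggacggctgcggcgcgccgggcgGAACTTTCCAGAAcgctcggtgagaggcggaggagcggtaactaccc

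Most standard subunits of the proteasome rose. Of 31 measured proteasome subunits and assembly factors, 27 were higher and 0 lower, with a median of 0.41. That is 87.1% of the list, while 15.4% of all genes were higher. The count of higher subunits was 18 to 26 with 1 array left out and 23 after quantile normalization. PSMD12, a lid subunit of the regulatory particle, read 11.7, 11.8 and 11.8 with the high dose and 10.4, 10.7 and 10.9 with vehicle (1.14 ± 0.15, adjusted p = 9.27e-07). PSMC4, an ATPase of the base, was higher by 0.81 ± 0.14, PSMC6 by 0.79 ± 0.13 and the ubiquitin receptor ADRM1 by 0.82 ± 0.17. Of 4 measured genes of the interferon-inducible proteasome, whose catalytic subunits replace the standard ones in immune settings, 3 were lower (2 after median centring) and 0 higher, and the activator subunit PSME1 differed by -0.23 (adjusted p = 0.0657, and 0.036 in the paired fit). PSMB9 read 6.98, 7.04 and 6.58 with the high dose and 7.91, 7.82 and 7.71 with vehicle (-0.95 ± 0.13, adjusted p = 1.56e-06), and PSMB8 differed by -0.39 ± 0.09 (adjusted p = 0.00134). PSMB10 differed by -0.43 ± 0.15 (adjusted p = 0.0191), a call absent without high-dose replicate 1 or vehicle replicate 3 (adjusted p = 0.0621 and 0.0654) and after median centring (0.0777).

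Of 12 measured ubiquitin and p97 stress genes, 7 were higher and 0 lower, with a median of 0.40. ZFAND2A, a proteasome-associated zinc finger protein induced by arsenite and heat, read 9.30, 9.21 and 9.47 with the high dose and 7.01, 6.94 and 7.55 with vehicle, or 4.46-fold (2.16 ± 0.22, adjusted p = 2.48e-08). UBQLN1, a shuttle to the proteasome, was higher by 0.71 ± 0.07 and VCP, the p97 segregase, by 0.52 ± 0.11. The polyubiquitin gene UBB differed by 0.01.

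Few chaperones of the endoplasmic reticulum passed the test at this time. Of 19 measured, 1 was higher and 0 lower, with a median of 0.05, and 2 were higher in the fit paired by replicate number. That one, DNAJB11, differed by 0.59 ± 0.23 (adjusted p = 0.0444) and did not pass without any 1 of the 6 arrays (adjusted p = 0.0533 to 0.141) or in the fit paired by replicate number (0.12). HSPA5, the chaperone BiP, read 13.7, 13.6 and 13.6 with the high dose and 12.9, 12.8 and 13.3 with vehicle, groups that did not overlap, yet the test gave an adjusted p of 0.0709 for 0.64 ± 0.28. The SE came from all 36 arrays, and HSPA5 varied more on the 48 h high-dose arrays (SD 0.78) than on the 24 h ones (SD 0.09). A fit on the 6 arrays alone gave an adjusted p of 0.0169. DDIT3, the stress factor CHOP, behaved likewise, with 8.65 ± 0.10 in high-dose cells and 7.92 ± 0.09 in vehicle cells (mean ± SD, n = 3 each) (0.73 ± 0.58, adjusted p = 0.341, and 0.00443 on the 6 arrays alone). Over the 289 genes named by rule, the fit on the 6 arrays alone gained 6 calls and lost 46.

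Of 13 measured genes of the ATF4 and CHOP group, 4 were higher and 2 lower, with a median of 0.26, and 2 were higher in the paired fit and without high-dose replicate 3, vehicle replicate 1 or vehicle replicate 2. The calls of the main fit are 46.2% of the list, near the 40.7% over all genes. ATF3, a stress-induced factor, read 6.37, 5.87 and 6.33 with the high dose and 4.44, 3.63 and 5.00 with vehicle (1.83 ± 0.69, adjusted p = 0.0352). The call did not hold in the paired fit (0.083) or without either high-dose replicate 1 or 3 or vehicle replicate 1 or 2 (0.0707 to 0.141), and its other probe set differed by 0.20. DDIT4, an inhibitor of mTORC1, was lower, reading 11.5, 11.7 and 11.4 with the high dose and 13.0, 12.9 and 12.5 with vehicle (-1.28 ± 0.25, adjusted p = 0.000177). The amino acid carrier SLC7A5, which pairs with SLC3A2, was 3.67-fold higher (1.88 ± 0.50, adjusted p = 0.00363). Asparagine synthetase ASNS, a usual ATF4 target, differed by -0.22 (adjusted p = 0.72). Of 14 measured amino acid supply genes, 2 were higher and 1 lower, and leaving out 1 array left 1 to 2 higher and 0 to 2 lower, while the paired fit called 3 lower. Of 15 tRNA synthetases 3 were higher and 1 lower, and leaving out 1 array left 1 to 2 higher (1 without vehicle replicate 1) and 0 to 1 lower, while the paired fit called 2 lower. The calls of the main fit are 21.4% of the amino acid list and 26.7% of the tRNA synthetase list, beside 40.7% of all genes.

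Genes that build ribosomes rose, and few ribosomal protein genes passed the test. Of 22 measured genes of ribosome biogenesis, 18 were higher and 0 lower, and their median of 0.65 was the highest of all lists with 9 or more measured genes. UTP15, a subunit of the small-subunit processome, read 8.67, 9.11 and 8.77 with the high dose and 7.79, 7.71 and 7.88 with vehicle (1.06 ± 0.16, adjusted p = 1.16e-05). BYSL, another small-subunit factor, differed by 0.97 ± 0.16, and NOP2, an rRNA methyltransferase, by 0.95 ± 0.11. Of 20 ribosomal protein genes, 1 was higher and 1 lower, with a median of -0.01, and the higher call was lost without any 1 of the 6 arrays, the lower one without high-dose replicate 2, vehicle replicate 1 or vehicle replicate 2.

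**Figure D3:**
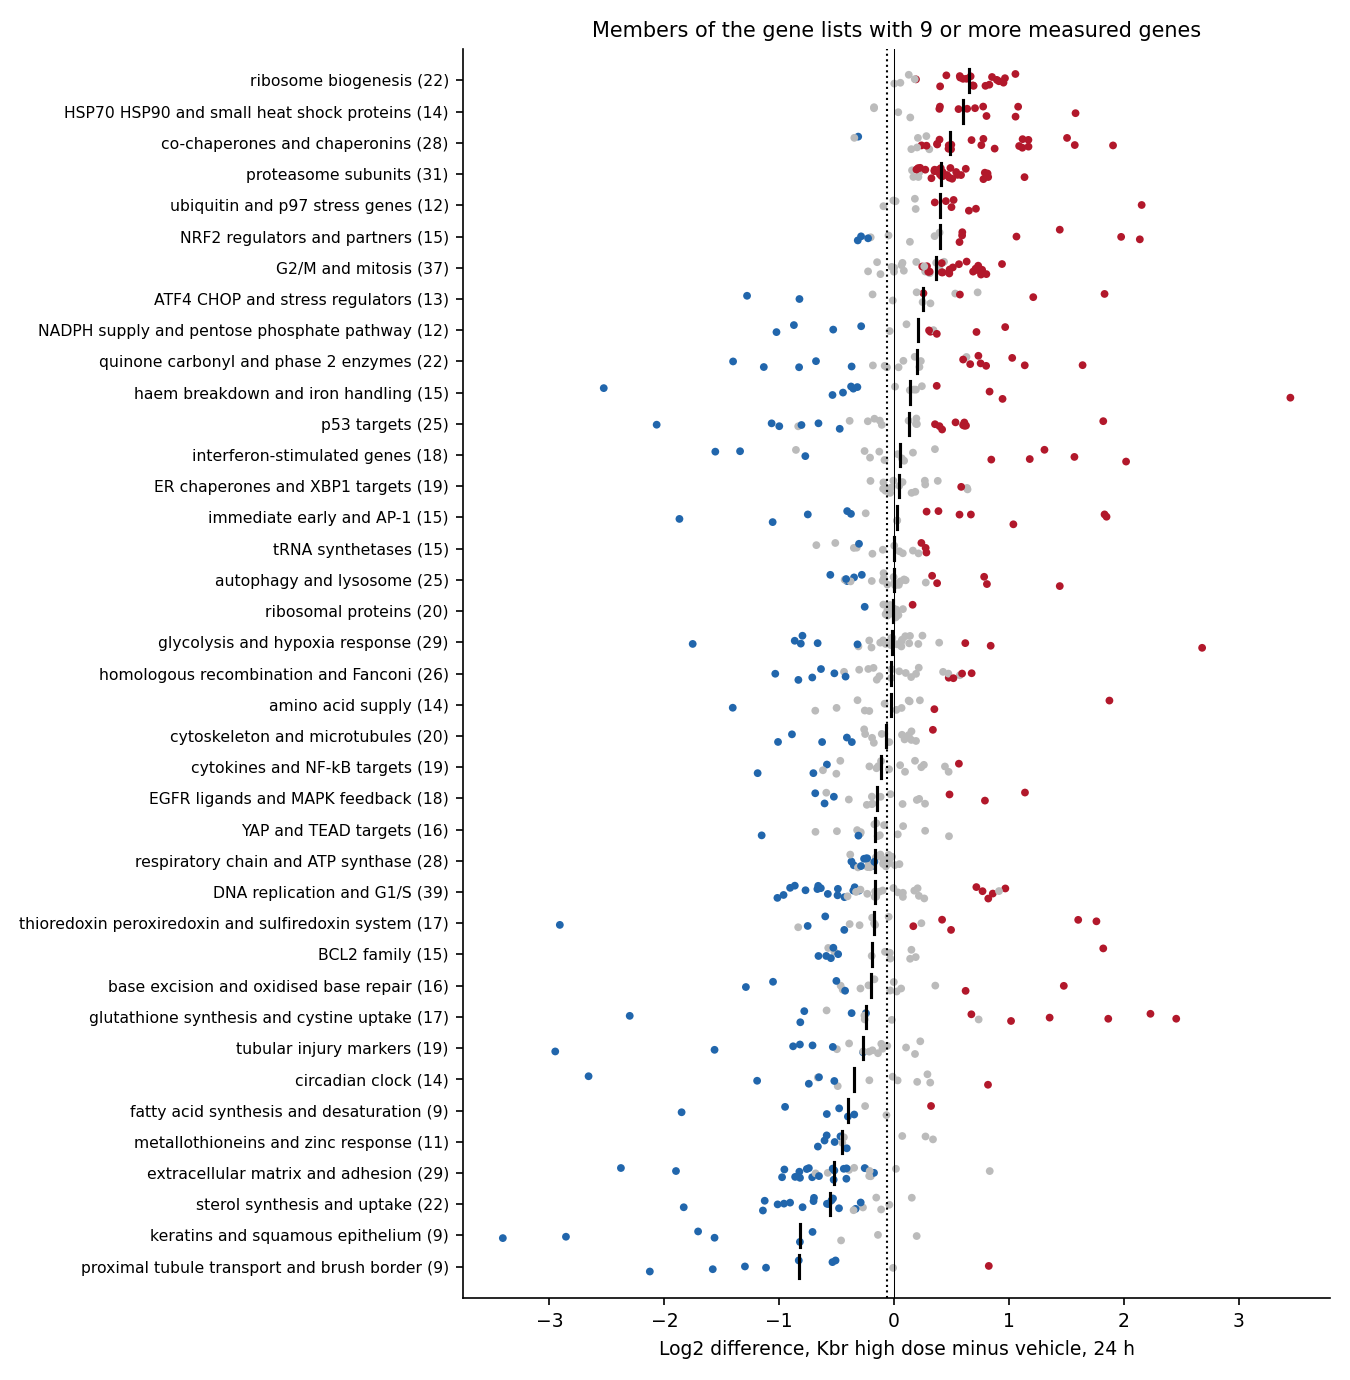
Each point is a measured gene of a list, at its log2 difference, Kbr high dose minus vehicle at 24 h, with red points higher and blue points lower by the test, grey points not past it and black bars at the list's median. Numbers in brackets give the measured genes, and the dotted line the median of all genes (-0.06). Ribosome biogenesis stands at the top with a median of 0.65 and the proximal tubule list at the bottom with -0.83.

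Many mitotic genes rose, while fewer replication genes passed the test upward than downward. Of 37 measured G2 and mitosis genes, 20 were higher and 0 lower, with a median of 0.37, though 13 were higher without vehicle replicate 1 or without vehicle replicate 2. CCNB1, the mitotic cyclin, read 13.1, 13.2 and 13.1 with the high dose and 12.3, 12.3 and 12.7 with vehicle (0.72 ± 0.11, adjusted p = 1.22e-05). Its kinase CDK1 was higher by 0.77 ± 0.16, and KIF23, a kinesin of cytokinesis, by 0.80 ± 0.19. Of 39 replication and G1/S genes, 5 were higher and 15 lower and 19 did not pass, with a median of -0.17. After median centring 9 were higher and 12 lower, and the 2 lists were not tested against each other. MCM5, a subunit of the replicative helicase, read 10.2, 9.81 and 9.89 with the high dose and 11.1, 10.7 and 10.8 with vehicle (-0.90 ± 0.14, adjusted p = 8.84e-06). The polymerase and primase subunits POLD1, POLA1 and PRIM1 differed by -1.02 ± 0.25, -0.96 ± 0.13 and -0.86 ± 0.11. The 5 higher genes held the origin licensing factor CDC6 (0.82 ± 0.22) and the replication factor MCM10 (0.97 ± 0.18, adjusted p = 0.00361 and 0.000124).

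Targets of p53, the transcription factor that answers DNA damage, went both ways. Of 25 measured, 9 were higher and 6 lower, with a median of 0.13, and 5 were higher without vehicle replicate 2. CDKN1A, the p21 inhibitor of cyclin kinases, read 9.88, 9.84 and 9.68 with the high dose and 9.22, 9.12 and 9.22 with vehicle (0.61 ± 0.10, adjusted p = 2.43e-05). PMAIP1, the proapoptotic NOXA, read 11.4, 11.8 and 12.0 with the high dose and 9.39, 10.0 and 10.4 with vehicle (1.82 ± 0.20, adjusted p = 8.67e-08). GDF15, a stress cytokine, was higher by 0.63 ± 0.19, a call lost with only the Kbr arrays in the fit. DDB2, which senses ultraviolet lesions, read 5.80, 5.84 and 5.91 with the high dose and 8.20, 7.89 and 7.66 with vehicle (-2.07 ± 0.20, adjusted p = 6.69e-09), and its repair partner XPC differed by -1.07 ± 0.15. TP53I3, a quinone reductase relative, differed by -0.81 ± 0.11, and TP53INP1, a stress-induced nuclear protein, was lower too. Of 15 BCL2 family genes, PMAIP1 was the 1 higher and 5 were lower (3 without vehicle replicate 1), among them the survival factor MCL1 at -0.55 ± 0.10. These calls are 40.0% of the BCL2 list, near the 40.7% over all genes.

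Of 16 measured genes that repair oxidized and alkylated bases, 2 were higher and 4 lower, with a median of -0.20. That is 37.5% of the list, beside 40.7% of all genes. NEIL3, a glycosylase for oxidized bases, read 9.88, 9.88 and 9.90 with the high dose and 8.21, 8.49 and 8.52 with vehicle (1.48 ± 0.22, adjusted p = 7.6e-06). TDG, the thymine glycosylase, was higher by 0.62 ± 0.09. MPG, the glycosylase for alkylated bases, read 6.81, 6.78 and 6.90 with the high dose and 8.23, 8.03 and 8.10 with vehicle (-1.29 ± 0.14, adjusted p = 5.28e-08). XRCC1, the scaffold of single-strand break repair, differed by -1.05 ± 0.18. OGG1, the 8-oxoguanine glycosylase, differed by -0.46 (adjusted p = 0.0684, and 0.032 in the fit paired by replicate number). Of 26 recombination and Fanconi genes, 4 were higher (2 without high-dose replicate 3) and 6 lower (3 without vehicle replicate 1), which is 38.5% of that list.

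Most measured lipid synthesis transcripts fell. Of 22 measured genes of sterol synthesis and uptake, 16 were lower and 0 higher, with a median of -0.56, and of 9 fatty acid genes 6 were lower and 1 higher, with a median of -0.40. ACSS2, which turns acetate into acetyl-CoA, read 8.28, 8.17 and 8.39 with the high dose and 10.4, 10.2 and 9.88 with vehicle, a 3.60-fold lower signal (-1.85 ± 0.11, adjusted p = 1.56e-12). TM7SF2, a sterol reductase, read 6.17, 5.86 and 6.30 with the high dose and 8.32, 7.87 and 7.62 with vehicle (-1.83 ± 0.22, adjusted p = 3.49e-07). SREBF1, the transcription factor of lipid synthesis, differed by -1.14 ± 0.20, lanosterol synthase LSS by -0.96 ± 0.11 and fatty acid synthase FASN by -0.95 ± 0.19. SQLE, squalene epoxidase, differed by -0.70 ± 0.10 in the probe set used, while its 4 probe sets ranged from -0.70 to 0.31. HMGCS1, an early enzyme of the mevalonate pathway, differed by -0.27 (adjusted p = 0.103).

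Among the glycolysis, hypoxia and respiratory chain genes listed, the largest change was a rise of ADM. Of 29 glycolysis and hypoxia genes, 3 were higher and 6 lower, with a median of -0.02, and of 28 respiratory chain genes, 0 were higher and 8 lower (2 lower after median centring), with a median of -0.16. The calls are 31.0% and 28.6% of these lists, beside 40.7% of all genes, and 25.3% of all genes were lower. ADM, adrenomedullin, a vasodilator peptide, read 8.27, 8.43 and 8.92 with the high dose and 5.70, 5.94 and 5.93 with vehicle, or 6.42-fold (2.68 ± 0.21, adjusted p = 1.89e-10). The glucose transporter SLC2A1 was higher by 0.62 ± 0.13. EGLN3, an oxygen-sensing hydroxylase, was at least 2.36-fold lower, with 2.89, 3.66 and 3.90 in high-dose cells, all under the floor of 4, and 4.89, 4.80 and 6.02 in vehicle cells. Hexokinase HK2 differed by 0.21 (adjusted p = 0.351).

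Keratin-associated epithelial genes were among the largest falls. SCEL, sciellin, a protein of the cornified envelope, read 6.40, 7.15 and 6.20 with the high dose and 10.0, 10.6 and 9.38 with vehicle, which is 10.6-fold lower and the largest fall of all genes (-3.41 ± 0.31, adjusted p = 2.65e-09). Periplakin PPL, which links keratin filaments to junctions, was at least 5.55-fold lower, with 3.49, 3.84 and 3.51 in high-dose cells and 6.30, 6.75 and 6.37 in vehicle cells. The keratins KRT80 and KRT19 differed by -1.71 ± 0.21 and -1.56 ± 0.15 (adjusted p = 3.6e-07 and 1.26e-08), and KRT18 by -0.14 (adjusted p = 0.388). Of 26 keratin and squamous genes listed, 9 were measured, and of these 6 were lower and 0 higher, with a median of -0.82.

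Of the 9 measured proximal tubule genes, 7 were lower and 1 higher, with a median of -0.83, and 4 were lower without vehicle replicate 2. SLC3A1, part of the carrier that reclaims cystine from urine, read 6.23, 6.28 and 5.91 with the high dose and 8.79, 8.47 and 7.55 with vehicle, or 4.37-fold lower (-2.13 ± 0.26, adjusted p = 4.07e-07). CLDN2, the cation pore of tight junctions, read 9.33, 9.01 and 8.89 with the high dose and 11.0, 10.7 and 10.3 with vehicle (-1.58 ± 0.23, adjusted p = 3.83e-06). CDH6, the K-cadherin of the proximal tubule, differed by -1.11 ± 0.22. The 1 higher gene was carbonic anhydrase CA2 (0.83 ± 0.13), while the sodium pump subunit ATP1B1 differed by -0.01. SLC17A3, a urate and phosphate transporter outside that list, read 5.21, 5.54 and 6.39 with the high dose and 8.08, 8.16 and 8.01 with vehicle (-2.37 ± 0.22, adjusted p = 6.69e-09).

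No marker of tubular injury passed the test upward. Of 19 measured, 0 were higher and 7 lower, with a median of -0.27, and 4 were lower without high-dose replicate 2. The 7 calls are 36.8% of the list, beside 40.7% of all genes called and 25.3% of all genes lower. HAVCR1, the injury marker KIM-1, read 10.0, 10.2 and 10.6 with the high dose and 11.1, 11.3 and 11.1 with vehicle (-0.88 ± 0.16, adjusted p = 0.000103). VCAM1, an adhesion molecule of activated cells, was at least 7.31-fold lower, with 3.76, 3.71 and 4.29 in high-dose cells and 6.70, 6.93 and 6.98 in vehicle cells (adjusted p = 8.28e-09). LCN2, the injury marker NGAL, lay under the floor of 4 on all 6 arrays. The keratins KRT7, KRT8, KRT18 and KRT19 stand in both this list and the keratin list.

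Most measured matrix and adhesion genes fell. Of 29 measured, 19 were lower and 0 higher, with a median of -0.53 (1 was higher without vehicle replicate 3). ITGB4, the hemidesmosome integrin, read 4.18, 4.57 and 4.42 with the high dose and 6.85, 6.69 and 6.76 with vehicle (-2.38 ± 0.27, adjusted p = 9.51e-08). COL1A1 differed by -1.90 ± 0.22 in the probe set used, and its 3 probe sets ranged from -1.90 to -0.13. LAMA5, a laminin of basement membranes, differed by -0.95 ± 0.24. Some listed markers of other cells were lower too. Of 18 fibroblast, endothelial and leukocyte markers, 3 were measured and 3 were lower. They were DCN, LUM and COL1A1, and COL1A1 also stands in the matrix list. The LUM call was lost without high-dose replicate 2 or 3 or vehicle replicate 1 or 2 (adjusted p = 0.0582 to 0.122). Their summed linear signals were 2418 to 3338 in high-dose arrays and 4712 to 6619 in vehicle arrays. The defining markers PECAM1, VWF, PTPRC, CD14 and COL1A2 were under the floor. Of 14 distal nephron markers, 4 were measured and 2 were lower, with summed signals of 436 to 674 in high-dose arrays and 774 to 1151 in vehicle arrays. AQP2, CALB1 and SLC12A3 were under the floor. Their part in the matrix and epithelial results was not tested.

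Of 18 measured interferon-stimulated genes, 5 were higher and 3 lower, with a median of 0.05. These 8 genes are 44.4% of the list, near the 40.7% over all genes. OASL, an RNA-sensing antiviral protein, read 5.85, 7.39 and 7.08 with the high dose and 4.17, 5.46 and 4.62 with vehicle (2.02 ± 0.45, adjusted p = 0.000696). IFIT1, IFIT2 and IFIT3, which bind viral RNA, were higher by 1.57 ± 0.45, 1.31 ± 0.25 and 1.18 ± 0.13. IFITM1, a membrane restriction factor, differed by -1.56 ± 0.28 and IFI35 by -1.34 ± 0.31. Of 19 cytokine and NF-kB genes, 1 was higher and 3 lower, with 0 lower without high-dose replicate 1 and 1 lower without vehicle replicate 3, and the higher one was IL18 at 0.57 ± 0.14. These calls are 21.1% of the cytokine list, beside 40.7% of all genes.

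The 2 doses given for 24 h share the vehicle arrays, so the doses were tested against each other. In the high-dose cells 487 genes (4.39%) differed from the low-dose cells, 76 higher and 411 lower. Median centring turned the split to 178 higher and 218 lower. The count was 246, 311 or 305 without high-dose replicate 1, 2 or 3, 196 or 299 without low-dose replicate 1 or 2, 38 with only these 6 arrays in the fit, and 1020 with arrays paired by replicate number. HMOX1 read 9.65, 9.56 and 9.83 with the low dose, between the vehicle and the high-dose arrays with no overlap on either side, and the high dose exceeded the low by 1.43 (adjusted p = 6.8e-05). PPP1R35, a centrosome protein, read 8.41, 8.04 and 8.07 with vehicle, 7.40, 7.32 and 7.54 with the low dose and 6.06, 5.99 and 6.07 with the high dose (high minus low -1.38, adjusted p = 8.4e-06). HLF, a clock-linked transcription factor, read 7.66, 7.90 and 7.55 with vehicle, 6.41, 6.67 and 6.70 with the low dose and 4.22, 5.54 and 5.38 with the high dose (high minus low -1.55, adjusted p = 0.0013). All 3 genes were ordered by dose on every array.

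Among stress genes the high dose also exceeded the low dose in GCLM by 0.63 (adjusted p = 0.017), BAG3 by 0.79 (0.0031), ZFAND2A by 0.98 (0.011), ADM by 0.80 (0.025) and GPAT3, a glycerolipid acyltransferase, by 0.92 (0.0089). EGR1, an immediate early factor, was lower with the high dose than with the low by a difference of -1.08 (0.00016), and HOGA1, a mitochondrial enzyme of hydroxyproline breakdown, by -1.51 (0.0045). By list, the high dose exceeded the low in 5 of 28 co-chaperones, 2 of 14 heat shock genes and 2 of 12 ubiquitin genes, and lay below it in 4 of 22 sterol genes and 4 of 9 keratin and squamous genes. Of 17 glutathione genes 1 was higher and 3 lower, and of 25 p53 targets 0 were higher and 3 lower. Over all 11092 genes, 76 were higher and 411 lower with the high dose than with the low. For other stress genes the doses did not differ past the test. The difference was 0.20 for SQSTM1 (adjusted p = 0.58), 0.70 for SLC7A11 (0.42), 0.37 for PSMD12 (0.16) and -0.02 for CDKN1A (0.98). A p above the threshold does not show equal levels.

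**Figure D4:**
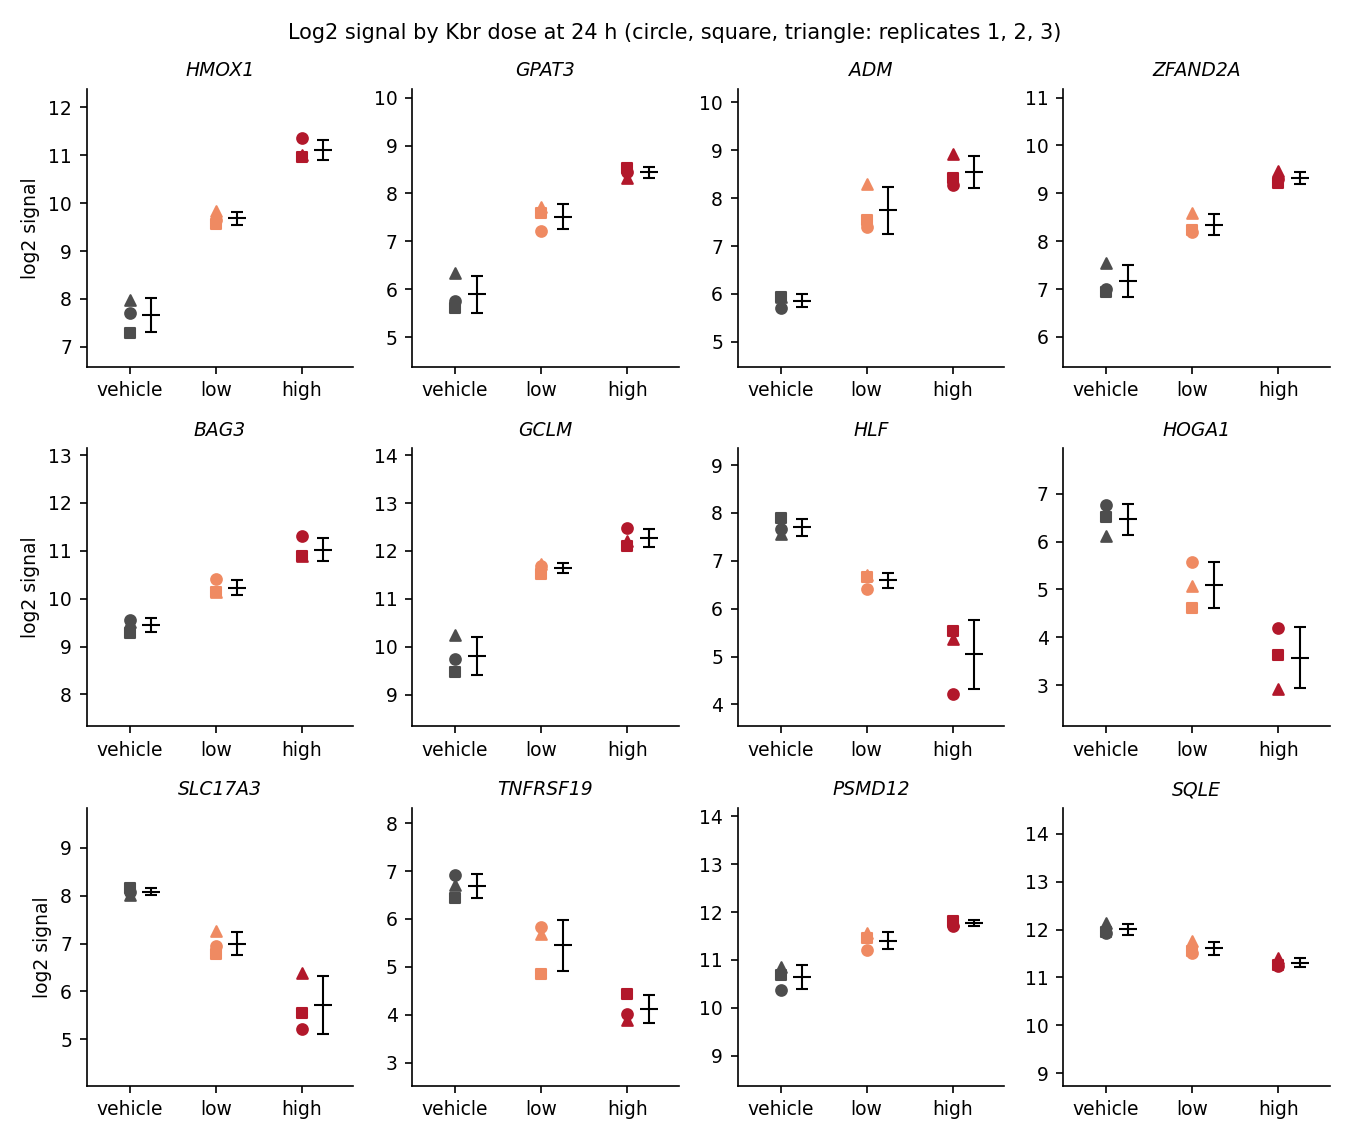
Log2 signal of 12 genes at 24 h with vehicle, the low dose and the high dose of Kbr, where points are arrays and bars the mean ± SD of 3. HMOX1, GPAT3, ZFAND2A, BAG3 and GCLM climb and HLF, HOGA1, SLC17A3 and TNFRSF19 fall from vehicle to low to high with no overlap between neighbouring groups, and the steps of PSMD12 and SQLE are smaller.

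The effect at 24 h was set against that of the same dose at 48 h, each against its own vehicle. Of 1711 genes higher at 24 h, 1588 were also higher at 48 h (92.8% of the 24 h list and 52.4% of the 3031 at 48 h), and of 2806 lower genes 2519 were lower again (89.8% and 65.9% of 3824). Opposite calls were made for 3 and 5 genes. Among all 11092 genes tested, 3031 were higher and 3824 lower at 48 h. The calls at both times rest on the same estimate of each gene's spread. The size of the effect differed between times in 1663 genes (15%), in 764 upward and 899 downward, with 1054 to 2127 genes when 1 array was left out (1054 without 24 h vehicle replicate 3).

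HMOX1 stood 3.45 above vehicle at 24 h and 3.82 at 48 h (difference 0.37, adjusted p = 0.4), and SQSTM1 1.44 at both times (adjusted p = 0.99 for the difference). For other stress genes the effect was larger at 48 h. NQO1 stood 1.64 above vehicle at 24 h and 2.76 at 48 h (adjusted p = 0.00013 for the difference), ZFAND2A 2.16 and 3.36 (0.0098), CHORDC1 1.91 and 2.75 (0.0074) and CDKN1A 0.61 and 1.51 (0.00013). Of the 11 genes of the metallothionein and zinc list, 7 were further down at 48 h, and MT2A differed by -0.41 at 24 h and -1.36 at 48 h (0.00039). Of the 19 endoplasmic reticulum chaperones, 1 was higher at 24 h (median 0.05) and 14 at 48 h (median 0.70), but the difference between times passed the test in 3 of 19 (2 in the paired fit), a share near the 15% over all genes. SDF2L1, one of the 3, differed by 0.38 at 24 h and 3.90 at 48 h (0.0022). For 6 of 18 interferon-stimulated genes the effect was lower at 48 h by the test (10 in the paired fit), and for 0 higher. Beside this count and that of the metallothionein and zinc list, the effect was lower at 48 h in 899 of all 11092 genes. IFIT3 stood 1.18 above vehicle at 24 h and -0.05 at 48 h (difference -1.23, adjusted p = 4.9e-05) and IFIT2 1.31 and 0.15 (-1.16, 0.026).

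**Figure D5:**
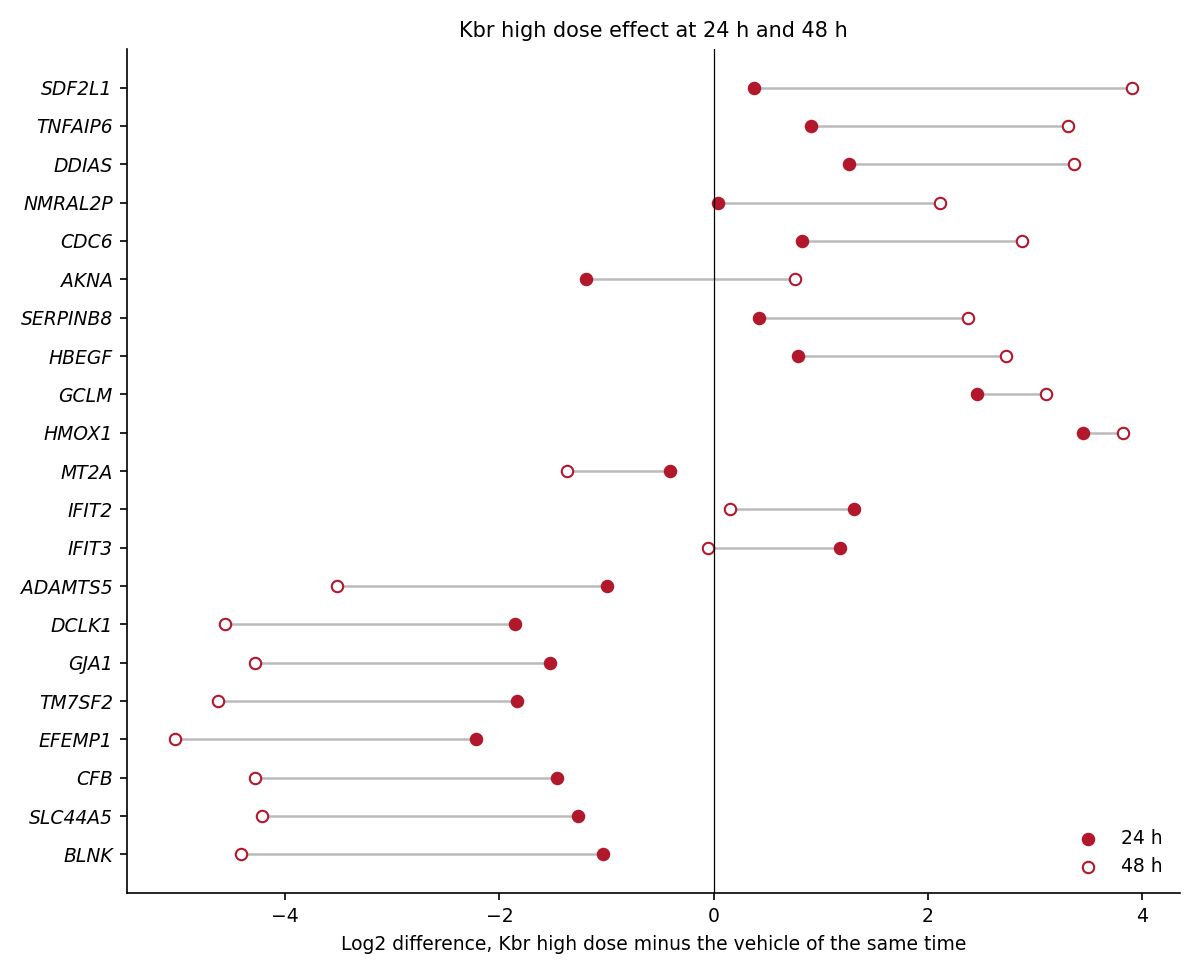
Log2 difference, Kbr high dose minus the vehicle of the same time, at 24 h (filled points) and 48 h (open points) for 21 genes, a line joining the times. SDF2L1 lies at 0.38 at 24 h and 3.90 at 48 h, HMOX1 at 3.45 and 3.82, and IFIT2 and IFIT3 lie near 0 at 48 h.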

How the data were processed

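Total RNA of 36 HK-2 samples was measured on expression arrays with 54675 probe sets. The authors deposited log2 values per probe set, made with GCRMA per the submitters' processing notes (its version is not given in the sources used here). They were used as deposited. Probe sets naming 1 gene were kept (41091), control probe sets were left out, and a gene was tested on its probe set with the highest mean if that exceeded log2 4 on at least 3 arrays. The small number of arrays limits precision, and some genes' probe sets disagree.

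One limma model (limma 3.58.1, R 4.3.3) with 12 group means over 36 arrays gave 3 contrasts, adjusted by Benjamini-Hochberg at 0.05. Deviations of same-numbered Kbr arrays from their group means correlated at 0.218 to 0.701 in all 45 pairs (median of different numbers -0.226), so the numbers pair the samples, and a fit with the replicate block was run beside the unblocked one. Counts, SEs and adjusted p-values are from the unblocked fit unless another fit is named. Where a group's mean lay under the floor, the fold is a lower bound set against the floor.

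Named genes were index genes, the largest changes with separate groups, and leading list members. BLVRA, GSS, GLRX, GPX4, BAG5, HSPA6, DNAJA1, DNAJB6 and IFIT3 fall outside that rule and were chosen after their values were seen. Members and lists were chosen with earlier results of these data known. Alternatives covered filters, probe set choice, scaling, arrays in the fit, the block, variance prior, array weights and each replicate left out.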

Additional observations from a re-analysis of the deposited data

Results flagged for a closer look

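For 16 genes the effect of the high dose differed between the times by a test of that difference in the same limma model, and they hold the 8 largest differences each way. The values are the 48 h effect minus the 24 h effect on the log2 scale. The effect was more positive at 48 h for SDF2L1, an endoplasmic reticulum chaperone partner (3.52), TNFAIP6, a hyaluronan-binding protein (2.40), DDIAS (2.10), the pseudogene NMRAL2P (2.07), the licensing factor CDC6 (2.06), SERPINB8 (1.95), AKNA (1.95) and the EGFR ligand HBEGF (1.94). It was more negative for the adaptor BLNK (-3.37), the carrier SLC44A5 (-2.94), complement factor CFB (-2.82), the matrix protein EFEMP1 (-2.80), the sterol reductase TM7SF2 (-2.79), the gap junction protein GJA1 (-2.76), the kinase DCLK1 (-2.71) and the protease ADAMTS5 (-2.52). AKNA differed from vehicle by -1.19 at 24 h and 0.76 at 48 h, and the other 15 kept the sign of their effect.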

How the results depend on the processing

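The count of genes changed by the high dose, 4517, was 3214 without _x_at and _s_at probe sets, where 8351 genes were tested, and up to 5507 elsewhere, and 3487 to 4344 with 1 array left out. The replicate block gave 5472, only the Kbr set 3783 and only the groups compared 3601. High against low dose gave 487 genes, but 312 without those probe sets, 38 with only the groups compared, 108 with only the Kbr set, 1020 with the replicate block in the Kbr set and 1458 with it in the groups compared. Leaving out 1 array gave 196 to 378. The time difference gave 1663 genes, 454 with only the groups compared, 870 with only the Kbr set, 2562 with the replicate block in the Kbr set, and 1054 to 2127 with 1 array left out. The block moved no other of these counts by over 1.5 times. Over 289 genes and 5105 alternative values, 4703 were counted as the same, including any change of sign in a gene called in neither fit. The call was lost in 331 and gained in 65, and 6 changed sign with a call in at least 1 fit. Those were ABCC3 (0.0853), CFB (0.041), HEXA (0.0854), SLC1A4 (0.0921) and USP14 (-0.1747) without _x_at and _s_at probe sets, and TEAD1 (0.0871) with all probe sets of a gene averaged. These settings read other probe sets of the gene. Apart from those constructions and smaller sample numbers, the cause was not tested.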

Other observations

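Several immediate early genes changed. Of 15 measured immediate early genes, 7 were higher and 5 lower, though 4 were higher without high-dose replicate 3, vehicle replicate 1 or vehicle replicate 2, and 3 were lower without high-dose replicate 2. EGR1, a growth factor responsive factor, read 9.12, 9.24 and 9.12 with the high dose and 10.9, 11.2 and 11.0 with vehicle (-1.87 ± 0.15, limma adjusted p = 6.42e-10), and JUNB differed by -1.06 ± 0.18. JUN, the AP-1 subunit, went the other way, with 9.89, 9.80 and 9.94 in high-dose cells and 8.54, 8.62 and 9.37 in vehicle cells (1.04 ± 0.17, adjusted p = 2.75e-05). Of 18 EGFR and MAPK feedback genes, 3 were higher (1 without high-dose replicate 1 or vehicle replicate 2) and 3 lower, with the phosphatase DUSP5 at 1.14 ± 0.16 and the receptor EGFR at -0.60 ± 0.14. These calls are 33.3% of the EGFR and MAPK list, beside 40.7% of all genes. Of 14 clock genes, 1 was higher, the repressor NR1D2 (0.82 ± 0.22), and 5 lower (1 without high-dose replicate 3 and 2 without vehicle replicate 1), which is 42.9% of the list, near the 40.7% over all genes.

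Other large falls were in single genes. RUNX2, a transcription factor of bone, read 4.26, 4.12 and 4.27 with the high dose and 6.96, 6.54 and 7.02 with vehicle (-2.62 ± 0.32, limma adjusted p = 3.01e-07). TNFRSF19, a receptor of the tumour necrosis factor family, read 4.02, 4.44 and 3.88 with the high dose and 6.92, 6.43 and 6.72 with vehicle (-2.58 ± 0.28, adjusted p = 5.76e-08). In both genes the groups did not overlap. Of 25 autophagy and lysosome genes, 5 were higher and 5 lower (3 without vehicle replicate 1), and of 20 cytoskeleton genes 1 was higher and 5 lower, among them the tubulin TUBB2B at -1.01 ± 0.28.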
